A study of Mus musculus with 5 samples.

Results

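Of 44 genes listed for collagens, other matrix proteins and the enzymes that remodel the matrix, 42 had a probe set that named that gene alone in the platform annotation. They are 42 of the 18193 genes with such a probe set on the arrays, and each was represented by its brightest probe set, the one with the highest mean log2 intensity over the arrays. The floor was an intensity of 8.39, the median level of all probe sets, and genes that reached it on any array, 40 of the 42, are called counted. Col8a1, a short-chain collagen, and Mmp3, the protease stromelysin 1, were under the floor on all 5 arrays. The probe sets of Loxl2 also name Gm21451 and read between 2.72 and 5.31, under the floor, and Fbn1 had no single-gene probe set in the annotation used here.

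All arrays carried RNA of C3H10T1/2 cells, a mouse mesenchymal cell line, that had been differentiated into adipocytes and then kept for 6 h with a compound or with the solvent DMSO. There were 5 groups of 1 array each: DMSO, butein, sulfuretin, a second solvent array named DMSO1, which the labels give as the control of resveratrol, and resveratrol. Butein and sulfuretin were compared with DMSO and resveratrol with DMSO1, and doses are not in the labels. Array readings below are deposited intensities. The DMSO, butein and sulfuretin arrays were apparently normalized apart from DMSO1 and resveratrol, with a median intensity of 6.85 in DMSO and 11.1 in DMSO1. An order of readings across these sets may therefore hold a difference of processing. With no replicate array a difference has no error of its own, so the size of the difference between the 2 solvent arrays is given beside the results.

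The labelled cell type was checked against its markers. All 9 adipocyte markers with a probe set were counted, with summed intensities between 20418 and 24069, and 5 of 7 fibroblast or preadipocyte markers were counted, with sums between 10773 and 11326. Endothelial cells and macrophages also make matrix. Of 6 endothelial markers 5 were under the floor, among them Pecam1 and Cdh5 (sums between 28.9 and 37.0), as were 4 of 8 macrophage and blood markers, among them Adgre1 and Ptprc (sums between 62.9 and 104). In such bulk RNA, fewer cells of a type and less RNA per cell cannot be told apart.

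The matrix around fat cells has an interstitial part, in which fibrillar collagens assemble into fibres, and a basement membrane of collagen IV, laminins, nidogens and perlecan that encloses each adipocyte. Lysyl oxidases crosslink collagen and elastin, proteases of the MMP and ADAMTS families cut matrix proteins, and TIMP proteins inhibit those proteases. During fat cell differentiation the fibrillar matrix is known to give way to a basement membrane, and the enlargement of fat tissue needs matrix remodelling.

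Promoter sequences are shown for Adamts1, the 1 member past 2-fold, and for Col11a1, the member furthest below its control with butein. They are the 250 bases before the annotated start, from RefSeq on build GRCm38.p6, written 5′ to 3′ on the gene's own strand, at chr16:85803114-85803363 (minus strand) and chr3:114030290-114030539 (plus strand). Capitals mark the GC box GGGCGG.
Adamts1: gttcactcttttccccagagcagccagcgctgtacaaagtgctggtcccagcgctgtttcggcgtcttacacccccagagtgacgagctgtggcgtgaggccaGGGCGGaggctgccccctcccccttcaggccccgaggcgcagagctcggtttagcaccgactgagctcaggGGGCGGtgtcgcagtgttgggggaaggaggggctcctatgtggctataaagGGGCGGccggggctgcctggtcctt
Col11a1: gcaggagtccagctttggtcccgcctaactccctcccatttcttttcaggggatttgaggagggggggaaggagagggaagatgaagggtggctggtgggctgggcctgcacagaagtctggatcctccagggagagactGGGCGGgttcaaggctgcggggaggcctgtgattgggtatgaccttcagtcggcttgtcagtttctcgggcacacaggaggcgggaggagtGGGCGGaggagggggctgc
The Adamts1 stretch held 3 GC boxes and the Col11a1 stretch 2. Neither held the AP-1 motif TGANTCA or the antioxidant response element TGACNNNGC, searched on both strands. Windows of 300 bases were at hand for 27 counted members. The GC box was in 70.4% of them and in 67.0% of the 10018 counted genes with a window, the AP-1 motif in 3.70% and 6.28%, the antioxidant response element in 14.8% and 16.6% and the E-box CANNTG in 51.9% and 67.5%. These motifs can overlap, and a match is a description of the letters, not a site.

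Butein left most matrix genes near their solvent level, and a pair of related proteases differed in direction. Adamts1, a secreted protease that cuts proteoglycans such as versican, was the 1 of 40 counted members at least 2-fold higher, and no counted member was at least 2-fold lower. Of all 12439 counted genes, 2.03% passed 2-fold upward and 0.297% downward, so 1 of 40 is near that background. Below DMSO by any amount were 26 of 40 members (65.0%), against 37.1% of all counted genes, and the members' median log2 difference was -0.12 against 0. Equal to DMSO were 10% of the members and 29.9% of all counted genes, and 33.0% of all counted genes were above it. Equal readings count as not below, which lowers the share of all counted genes more than that of the members. Among the 1053 counted genes with a mean level at or above the members' median level, 59.6% were below DMSO and the median was -0.069. The members' share lay nearer to that of these genes with high readings, and their median lay further below 0. Many members are under that level, so the sets are not matched for level, here or where this comparison recurs below.

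**Figure D1:**
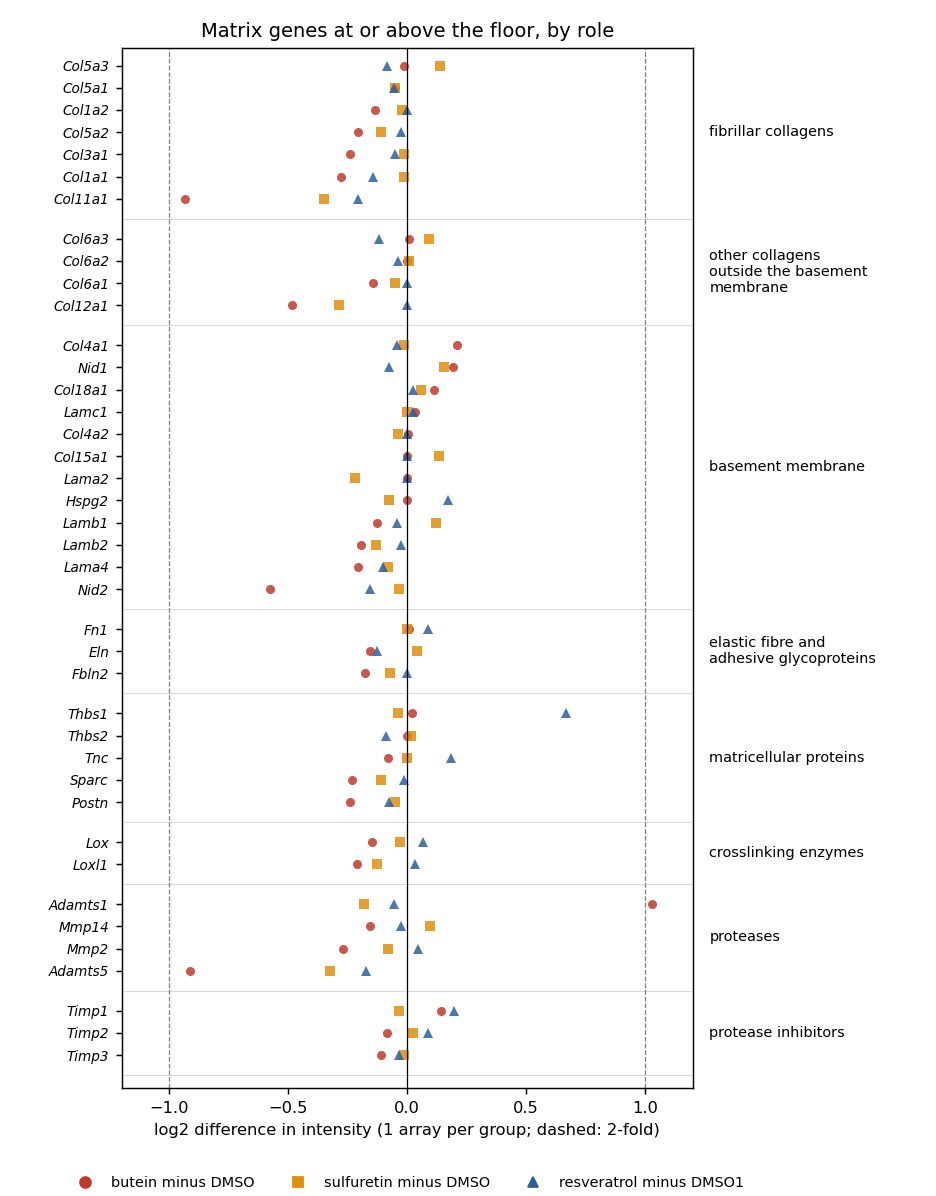
Log2 difference in intensity (horizontal axis) of the 40 counted matrix genes, grouped by role, for butein minus DMSO (circles), sulfuretin minus DMSO (squares) and resveratrol minus DMSO1 (triangles), 1 array per group, with dashed lines at 2-fold. Adamts1 with butein (1.03) is the only point past a dashed line, and all 7 fibrillar collagens lie below 0 with butein.

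Adamts1 read 477 in DMSO, 974 with butein, 421 with sulfuretin, 708 in DMSO1 and 681 with resveratrol. In deposited values the butein array was the highest of the 5 and the sulfuretin array the lowest. DMSO1 lay between the DMSO and butein arrays. With butein Adamts1 was 2.04-fold higher than in DMSO (log2 difference 1.03), a difference exceeded by 245 counted genes. Between the solvent arrays, after quantile normalization of all 5, it differed by 0.22. Against the mean of both solvent arrays on that scale the butein difference was 0.89, and against DMSO1 0.78, both under 2-fold. Adamts1 had a single probe set, so no other reading of it was at hand.

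Adamts5, the main aggrecan-cutting protease of this family, was on the other side. Its brightest probe set read 310 in DMSO, 165 with butein, 248 with sulfuretin, 364 in DMSO1 and 324 with resveratrol. Butein gave the lowest value, 1.88-fold under DMSO (log2 difference -0.91), and 63 counted genes were lower still. A second probe set read 231 in DMSO and 104 with butein (-1.15), and another 72.1 and 33.8 (-1.09). Both passed 2-fold, so the call rests on which probe set is taken, while the 3 readings shared a direction. Adamts1 and Adamts5 lie near each other on chromosome 16, with no protein-coding gene between them in the RefSeq annotation.

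**Figure D2:**
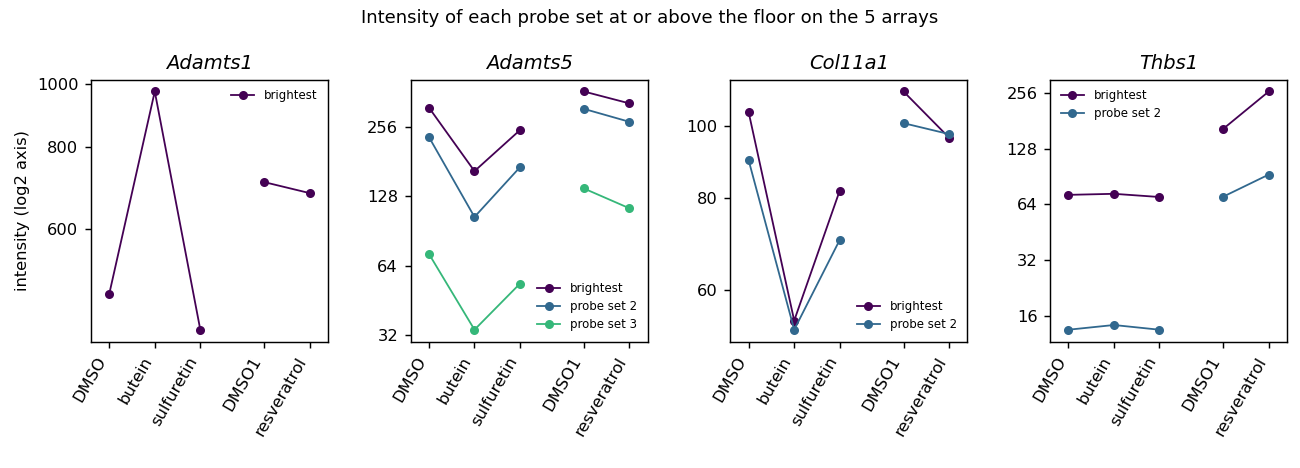
Intensity (log2 axis, scaled for each gene) on the 5 arrays for Adamts1, Adamts5, Col11a1 and Thbs1, with 1 line per probe set at or above the floor and a gap between the arrays compared with DMSO and those compared with DMSO1. Butein stands highest for Adamts1 (974) and lowest for each line of Adamts5 and Col11a1, and Thbs1 reads higher with resveratrol (260) than in DMSO1 (164).

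The MMP genes stayed close to their controls. Mmp2, gelatinase A, read 486 in DMSO, 403 with butein, 459 with sulfuretin, 522 in DMSO1 and 538 with resveratrol, and Mmp14, the membrane-bound activator of pro-MMP-2, had log2 differences of -0.16, 0.098 and -0.025 with the 3 compounds. The inhibitor genes did so too. Timp1 differed by 0.14 with butein and by 0.20 with resveratrol, Timp2 by -0.085 and 0.086 and Timp3 by -0.11 and -0.035. The 4 counted proteases had a median of -0.21 with butein and the 3 inhibitors -0.085.

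All 7 fibrillar collagens were below DMSO with butein, with a median of -0.21 and none past 2-fold. Of all counted genes 37.1% were lower and 29.9% equal, and 59.6% of those with high readings were lower. After joint quantile normalization 5 of the 7 were also lower in DMSO1 than in DMSO, with a median of -0.17. Against the mean of both solvent arrays on that scale the butein median was -0.13. There Col5a1 lay above the solvent mean (0.47) and the others below it. Col11a1, a minor chain that helps set fibril diameter, read 104 in DMSO, 54.6 with butein, 81.9 with sulfuretin, 111 in DMSO1 and 96.5 with resveratrol. The butein value lay under both solvent values, at 1.91-fold below DMSO (log2 difference -0.94), with 56 counted genes lower still, and its second probe set gave -0.76. Between the solvent arrays Col11a1 differed by -0.43 after joint quantile normalization, and on that scale butein minus DMSO1 was -0.48.

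The major fibril chains differed by far less on their brightest probe sets. Col1a1 and Col1a2, which form collagen I, had log2 differences of -0.28 and -0.13 with butein, and Col3a1, the chain of collagen III, had -0.24. Col5a2, Col5a1 and Col5a3, chains of the fibril-nucleating collagen V, had -0.21, -0.051 and -0.015. Adipocyte markers were also lower with butein, 9 of 9 with a median of -0.30 and a sum of 20418 against 23629 in DMSO, and the 5 counted fibroblast or preadipocyte markers had a median of -0.039; the part of either in the collagen values was not tested.

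Dimmer probe sets of the same genes often gave lower log2 differences with butein. A second probe set at or above the floor was at hand for 27 members. It had the same sign as the brightest in 21 and the opposite sign in 0, with 1 or both readings equal to DMSO in the other 6. It lay lower than the brightest in 18 of 27 (66.7%), against 44.0% of 5725 counted genes with 2 such probe sets. Of those 5725 genes, 2567 had 1 or both readings equal to DMSO. A gene equal on both probe sets cannot lie lower, so the 2 shares do not compare like with like. Lower was not always wider. Col4a1 (0.037) and Nid1 (0.095), above DMSO on both probe sets, lay nearer to 0 on the second. Col11a1 (-0.76) and Col1a1 (-0.20), below DMSO on both, did so too. Col3a1 read 4253 in DMSO and 3599 with butein on its brightest probe set but 435 and 242 on the second (-0.84). The second probe sets of Lox (-0.62), Col5a2 (-0.53) and Lama4 (-0.53) also lay further below DMSO than the brightest. The sizes of these differences therefore depend on the probe set more than their direction does.

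**Figure D3:**
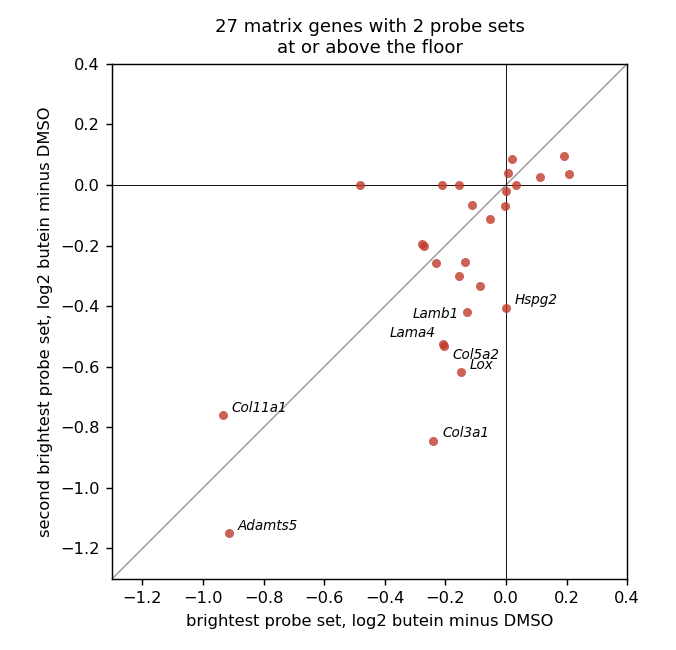
Log2 difference between butein and DMSO on the brightest probe set (horizontal axis) and on the second brightest (vertical axis) for the 27 matrix genes with 2 probe sets at or above the floor; the grey diagonal marks equal values. In 18 of the 27 the second lies below the diagonal, and no gene has opposite signs on its 2 probe sets.

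Basement membrane genes went both ways with butein. Of 12 counted, 5 were above DMSO, 4 below and 3 equal, with a median of 0, and none passed 2-fold. Over all counted genes 33% were above DMSO. Nid2, a nidogen that links laminin to collagen IV, read 185 in DMSO, 124 with butein, 180 with sulfuretin, 286 in DMSO1 and 257 with resveratrol. The butein array was the lowest, at -0.58 against DMSO. Its paralogue Nid1 was on the other side of 0, with 509 in DMSO and 581 with butein (0.19), so the nidogens differed in direction on the butein array.

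Collagen IV and the laminins stayed closer to DMSO. On its brightest probe set Col4a1 read 1584 in DMSO, 1829 with butein, 1571 with sulfuretin, 1627 in DMSO1 and 1581 with resveratrol. There the butein array was the highest of the 5 (0.21). A second probe set read 506 in DMSO, 520 with butein, 517 with sulfuretin, 1021 in DMSO1 and 1013 with resveratrol. Col4a2, the head-to-head neighbour of Col4a1, whose chain joins that of Col4a1 in the collagen IV trimer, differed from DMSO by 0.0044. The laminin chain genes Lama4, Lamb2 and Lamb1 had -0.21, -0.19 and -0.13, Lamc1 had 0.033 and Lama2 was equal to DMSO. Hspg2, the gene of the heparan sulfate proteoglycan perlecan, was equal to DMSO on its brightest probe set and at -0.40 on the second. Of the multiplexin collagens, Col18a1, the source of endostatin, had 0.11 and Col15a1 was equal to DMSO.

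Among the other collagens Col12a1, a fibril-associated collagen, had a log2 difference of -0.48 with butein, from 195 in DMSO to 139. Its second probe set read equal on those 2 arrays. The chains of the microfibrillar collagen VI, Col6a1, Col6a2 and Col6a3, had -0.15, -0.0026 and 0.0065. The crosslinking enzymes Lox and Loxl1 had -0.15 and -0.21. Fn1, the gene of fibronectin, had 0.0062, Eln, that of elastin, -0.16 and Fbln2, that of fibulin 2, -0.18. The matricellular genes Postn and Sparc had -0.24 and -0.23, and Tnc -0.080. None of these genes passed 2-fold.

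Sulfuretin placed no counted member past 2-fold, where 0.193% of all counted genes passed it upward and 0.0482% downward. The members' median was -0.033 against 0 over all genes, and 26 of 40 (65.0%) lay below DMSO, against 32.6% of all counted genes and 53.7% of those with high readings. Equal to DMSO were 7.5% of the members and 32.5% of all counted genes. The widest differences were those of Col11a1 (-0.35), Adamts5 (-0.32) and Col12a1 (-0.29) downward and Nid1 (0.15) upward. The fibrillar collagens had a median of -0.022, with Col3a1 at -0.014 and Col1a1 at -0.012, and Adamts1 was at -0.18. Basement membrane genes had a median of -0.023.

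Butein, a chalcone, and sulfuretin, the aurone in which its bridge is closed into a ring, share the 6 h time and the DMSO array, while doses are not in the labels. On the sulfuretin array Adamts1 was 2.31-fold under its butein value (log2 difference -1.21), the 1 member of 40 at least 2-fold apart, where 1.04% of all counted genes passed 2-fold downward and 0.0965% upward with sulfuretin. Adamts5 was 0.59, Col11a1 0.58 and Nid2 0.54 higher with sulfuretin than with butein. In all, 28 of 40 members (70.0%) were higher with sulfuretin, against 37.0% of all counted genes and 59.3% of those with high readings, and the members' median was 0.098. Equal on both arrays were 2.5% of the members and 32.9% of all counted genes. With 1 array per compound these differences carry no test and no interval.

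Resveratrol placed no counted member past 2-fold either, where 0.0804% of all counted genes passed it upward and 0.0643% downward. The members' median was -0.026, and 22 of 40 (55.0%) were lower, against 34.0% of all counted genes and 50.7% of those with high readings. Equal to DMSO1 were 17.5% of the members and 33.1% of all counted genes. Thbs1, the gene of thrombospondin 1, an adhesive glycoprotein that can activate latent TGF-beta, had the widest difference of the members. It read 72.0 in DMSO, 73.0 with butein, 70.1 with sulfuretin, 164 in DMSO1 and 260 with resveratrol. The resveratrol array was the highest (log2 difference 0.67 to DMSO1), and 29 counted genes had a larger upward difference. The second probe set gave 0.40, and a probe set that names both Pald1 and Thbs1 gave 0.48. Yet DMSO1 itself lay 0.65 above DMSO for Thbs1 after joint quantile normalization, about as far as resveratrol lay above DMSO1.

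The next widest members with resveratrol were Col11a1 (-0.21), Timp1 (0.20), Tnc (0.19), the gene of tenascin C, Hspg2 (0.17) and Adamts5 (-0.17). Fibrillar collagens had a median of -0.055, with 6 of 7 lower and Col1a2 equal to DMSO1. The crosslinking enzymes Lox (0.066) and Loxl1 (0.034) were slightly above DMSO1.

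The difference between the solvent arrays is set beside these values, and it depends on the probe set. Timp3 read 725 in DMSO and 509 in DMSO1 on its brightest probe set but 11.2 and 151 on its dimmest. For Timp2 the brightest gave 2191 and 1850 and a dimmer one 30.0 and 385. Col1a2 was closer, with 5019 and 4716 on the brightest and 1547 and 1751 on the second. The solvent differences below are those of the brightest probe set and do not measure a gene's spread. After joint quantile normalization 2 members were at least 2-fold apart between DMSO1 and DMSO, Col15a1 (1.05) and Col5a1 (-1.01), as were 2.37% of all counted genes upward and 3.43% downward. The members' median size of difference was 0.24 between the solvent arrays on that scale. In the deposited values it was 0.15 for butein, 0.054 for sulfuretin and 0.053 for resveratrol. The counts that follow set the same 2 scales side by side. The butein difference exceeded the solvent difference of the same gene in 15 of 40 members (37.5%, against 27.7% of all counted genes), among them Adamts1, Adamts5, Col11a1, Nid2, Col12a1 and Col3a1. That was so of 5 members with sulfuretin (12.5%, against 17.3%) and 7 with resveratrol (17.5%, against 12.8%). A gene equal to its control cannot exceed its solvent difference. Such equal genes were 10% of members and 29.9% of all counted genes with butein, and 7.5% and 32.5% with sulfuretin. With resveratrol they were 17.5% and 33.1%. Ties lower the shares of all genes more, so these pairs of shares do not compare like with like. The 2 sets of arrays were apparently normalized apart by the authors, so the solvent difference may hold a difference of processing. The same solvent difference gives the only residual of the limma model below. Its p-values therefore do not measure a spread of replicate arrays within a set. When limma took the DMSO arrays as replicates, with 1 residual degree of freedom, no member had an adjusted p of 0.05 or less for any compound, and nor did any other counted gene. At an unadjusted p under 0.05 there was 1 member, Adamts1, higher with butein, where 2.83% of all counted genes had such a p (292 higher and 60 lower). There were 0 members with sulfuretin, against 0.305% of all genes, or with resveratrol, against 0.241%.

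Of 18 counted genes of collagen folding and maturation, 8 were above DMSO with butein, 4 below and 6 equal, with 1 past 2-fold and a median of 0. Over all counted genes 33% were above DMSO, 37.1% below and 2.03% past 2-fold upward. P4ha1 and P4ha2 encode the catalytic subunits of the prolyl 4-hydroxylase that stabilises the collagen triple helix. On its brightest probe set P4ha1 read 103 in DMSO, 233 with butein, 153 with sulfuretin, 156 in DMSO1 and 151 with resveratrol. Butein gave the highest of these 5 values, 2.26-fold over DMSO (1.18), sulfuretin came to 0.57 and resveratrol read close to DMSO1 (-0.041). A second, dimmer probe set of P4ha1 read 6.27 in DMSO, 10.1 with butein (0.68), 7.58 with sulfuretin, 95.1 in DMSO1 and 87.8 with resveratrol. There DMSO and sulfuretin lay under the floor, the butein difference was under 2-fold and DMSO1 gave the highest value. P4ha2 read 136 in DMSO, 215 with butein (0.67), 200 with sulfuretin (0.56), 159 in DMSO1 and 143 with resveratrol. In deposited values the butein and sulfuretin arrays lay above both solvent arrays for P4ha2, which had a single probe set. On the brightest probe set of P4ha1 sulfuretin lay just under DMSO1. These orders cross arrays that were apparently normalized apart and were not checked after joint quantile normalization. No contrast between P4ha1 and P4ha2 is drawn from them.

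The collagen chaperone gene Serpinh1 had 0.27 with butein and Mia3, needed for the export of procollagen, had 0.45. The lowest was Pcolce, whose product enhances procollagen processing, at -0.39 with butein and -0.17 with sulfuretin. With sulfuretin 9 of the 18 were higher and 4 lower, and with resveratrol 6 were higher and 6 lower, none past 2-fold; over all counted genes 34.8% and 32.9% were higher. With resveratrol the lowest was P4ha2 (-0.15) and the highest Ppib (0.050), a prolyl isomerase gene.

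**Figure D4:**
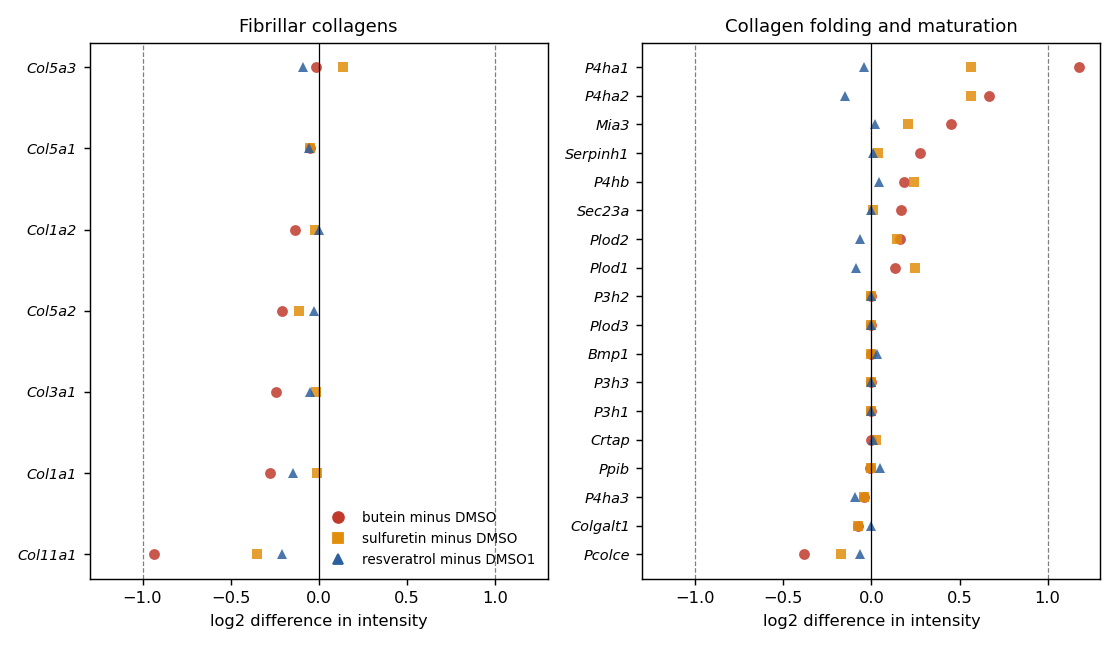
Log2 difference in intensity for the 7 fibrillar collagen genes (left) and the 18 counted genes of collagen folding and maturation (right), with circles for butein and squares for sulfuretin, each minus DMSO, and triangles for resveratrol minus DMSO1; dashed lines mark 2-fold. P4ha1 (1.18) and P4ha2 (0.67) lie furthest right with butein, while all 7 fibrillar collagens lie left of 0.

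Of 12 other counted proteases and regulators, Mmp13, the gene of collagenase 3, was past 2-fold with butein, from 3.74 in DMSO to 21.4, a difference of 2.52 that starts under the floor, so its size is uncertain. It read 4.21 with sulfuretin and 2.12 in both DMSO1 and resveratrol. Adamts4, another aggrecan-cutting protease, was lowest with butein (-0.60), Mmp11 highest (0.80) and Plat lowest (-0.40) with sulfuretin, and Plaur highest (0.26) and Mmp19 lowest (-0.34) with resveratrol. Of 16 counted matrix receptors, Sdc4, the gene of the heparan sulfate proteoglycan syndecan 4, read 206 in DMSO and 443 with butein (1.11), the 1 past 2-fold, and 180 in DMSO1 and 276 with resveratrol (0.61). A second probe set of Sdc4 gave 0.68 with butein, under 2-fold, -0.081 with sulfuretin, where the brightest gave 0.26, and 0.39 with resveratrol. Itga6, a laminin receptor chain, was lowest with butein, at 161 in DMSO and 95.3 (-0.75), and with resveratrol, at 412 in DMSO1 and 262 (-0.65). With sulfuretin Itga6 had 0.037, and the receptors ranged from Itga1 (-0.37) to Cd44 (0.27). Among 4 other crosslinking enzymes the butein values ran from Pxdn (-0.33) to Loxl4 (0.33), those with sulfuretin from Loxl3 (-0.10) to Loxl4 (0.095), and those with resveratrol from Tgm2 (-0.18) to Pxdn (0.14). Over all 50 counted genes of these other lists, 3 passed 2-fold upward and 0 downward with butein, where 2.03% and 0.297% of all counted genes did. Mmp13, 1 of the 3, reached the floor on the butein array alone, and the calls of P4ha1 and Sdc4 rest on the brightest probe set. None of the 50 was past 2-fold with sulfuretin or resveratrol.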

How the data were processed

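Per the labels, total RNA (500 ng) of each culture was hybridised to 1 Affymetrix array per group, 5 in all. The deposited values are intensities made by the authors with RMA, per the submitters' processing notes. The sources used here do not give its version or output scale. Their range, 1.40 to 9340, is that of a linear scale, so log2 of each intensity was taken. Sorted values nearly coincide within DMSO, butein and sulfuretin and within DMSO1 and resveratrol, but not between these sets.

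Of 45037 probe sets 34945 name 1 gene, and 34741 had their gene ID in a RefSeq table of GRCm38.p6, which updated the symbols. Calls were made at 2-fold. Values within 1e-06 (log2) were called equal. The members, lists and rules were chosen with earlier results of these data known. Named genes outside the members were those past 2-fold in a list, or else its highest and lowest, and with butein P4ha2, Serpinh1, Mia3, Pcolce, Adamts4 and Itga6 were added after their values were seen. The call procedure was tried on simulated data, with set folds added to shuffled differences between resveratrol and DMSO1. A pass was required only at folds well above 2-fold and for genes with no added fold. It therefore does not bear on calls near 2-fold, such as that of Adamts1. Alternatives were other fold criteria, floors and probe set rules, joint quantile normalization, centring, other controls and limma. The models ran in limma 3.58.1 under R 4.3.3, and all else in Python 3.11.15 with pandas 2.3.3, numpy 2.4.6, scipy 1.17.1 and, for plots, matplotlib 3.10.9.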

Additional observations from a re-analysis of the deposited data

Results flagged for a closer look

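Adamts1 differed in sign between compounds: it was past 2-fold above DMSO with butein (log2 difference 1.03) and below the control with sulfuretin (-0.181) and with resveratrol (-0.056). Both negative values are smaller in size than the 0.22 between the solvent arrays after joint quantile normalization. Against the other solvent array on that scale resveratrol turned to 0.20, and sulfuretin stayed below it at -0.36. With 1 array per group the difference between the compounds was not tested.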

How the results depend on the processing

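The values rest on 1 array per group, and the control array mattered most. With the other DMSO array as control after joint quantile normalization, the medians over all members became -0.013 for butein, 0.083 for sulfuretin and -0.17 for resveratrol. For butein the crosslinking enzymes reversed to 0.18, and inhibitors came to 0.55 and proteases to -0.37. For sulfuretin fibrillar collagens (0.090), Col11a1 (0.090, reversed), crosslinking enzymes (0.29), proteases (-0.25) and inhibitors (0.40) moved. For resveratrol fibrillar collagens (-0.24), crosslinking enzymes (-0.26) and inhibitors (-0.26) moved. On that scale butein had 0 members past 2-fold higher and 2 lower, and resveratrol 2 higher and 2 lower.

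With the mean of both DMSO arrays, butein had 0 members higher and resveratrol 1, Thbs1 (1.05). The crosslinking median reversed to 0.0071 for butein and came to 0.12 for sulfuretin and -0.090 for resveratrol. Proteases came to -0.36 for butein and -0.24 for sulfuretin, and inhibitors to 0.34, 0.20 and -0.070 for butein, sulfuretin and resveratrol.

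The second brightest probe set was tried after the data had been seen. It gave fibrillar medians of -0.39 for butein and -0.14 for sulfuretin, crosslinking enzymes -0.31 and inhibitors -0.20 for butein, and proteases 0.013 (reversed) for sulfuretin and -0.14 for resveratrol, with 0 members past 2-fold higher and 1, Adamts5, lower for butein. Adamts1, with its single probe set, drops out there. At 1.5-fold butein had 2 members lower, Col11a1 and Adamts5, and resveratrol 1 higher, Thbs1; at 3-fold butein had 0 higher, and limma called 0. Over all these alternatives, 171 medians and counts stayed the same or within 0.1 (log2), 36 moved and 3 reversed. The 171 include those under centring, which could change nothing because the median over all counted genes was 0 for each compound. The fibrillar median with butein lay between -0.39 and -0.13 under each alternative that gives a median. The cause of these shifts was not tested. No paired analysis was possible because each group has 1 array.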
